A study of Mus musculus with 6 samples.

Results

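Mitosis and G2/M genes are those whose transcripts accumulate as a cell leaves S phase and divides. The set described here holds 33 genes, chosen by symbol as well-known markers of this part of the cell cycle, and 32 of them had a row of their own on the array. These 32 were all bright enough to be tested, among 10021 tested genes of 19938 genes with a row. Ccnb1 was not analysed here, because no row carried its symbol alone.

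The cells were CD8+ T cells, the lineage of cytotoxic T lymphocytes, from spleens of ICR mice labelled as males of 6 weeks. The tested mice were Runx3-/- mice, which lack both working copies of the gene for the Runt-related transcription factor Runx3 in the germ line, and the controls were wild-type (WT) mice, labelled Runx3 +/+. Cells of both genotypes were stimulated through the T cell receptor with plate-bound anti-CD3 and soluble anti-CD28 for 2 days and then grown in human recombinant IL-2 at 100 units/ml for 4 days. The Runx3-/- cells went through further sorts, ahead of the culture to take out CD11c+ dendritic cells that carry CD8, and at its end to take out CD4+CD8- T cells, so sorting and genotype cannot be told apart. Total RNA of 3 biological repeats per genotype was hybridized to 1 Affymetrix mouse gene ST 1.0 array each, called KO1 to KO3 and WT1 to WT3 here. In bulk RNA of this kind, a smaller share of dividing cells and less of a transcript per dividing cell cannot be told apart.

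The labels were looked at first. Runx3 had log2 values of 8.91, 9.11 and 9.27 on the KO-labelled arrays, against 8.77, 8.26 and 9.16 on the WT arrays, a difference of 0.37 (SE 0.24, adjusted p = 0.521). The groups overlapped, and it is not known which exons the probes of this row cover relative to the disrupted part of the gene, so that Runx3 is no check of the genotype here. The genotype is therefore written as KO-labelled. WT1 did not carry the signs of its labelled sex: Xist, which coats the inactive X, stood at 10.64 on WT1 and at 3.31 to 3.40 on the other arrays, and the Y-linked Eif2s3y at 3.93 on WT1 and at 9.24 or above elsewhere. KO2 stood apart from the other arrays in the genes described here. For the mitosis and G2/M genes as a set, results are given with and without WT1 and KO2. Single genes of other lists are not given without WT1, and only some of them are given without KO2. The markers of CD8 T cells were bright on every array, with a mean level of 10.50 to 10.74 on the KO-labelled arrays and 10.46 to 10.66 on the WT arrays over 6 listed genes with a row. Of the markers of other cells, 5 of 6 for B cells, 8 of 9 for dendritic cells, 7 of 7 for myeloid cells and 3 of 3 for erythroid cells lay below the median of the table, 4.26, on all arrays. This held for only 1 of 4 CD4 T cell and 2 of 5 NK cell markers, which are described further below. The dendritic cell exception was Cd74, at 5.735 on KO1 and at 3.49 to 4.24 on the other arrays.

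Division of a cell is driven by Cdk1 bound to its A and B type cyclins. Their transcripts and those of the kinases, kinetochore proteins, motors and cytokinesis factors that act downstream are made in one wave, which in resting and G1 cells is held down by the DREAM complex and in dividing cells is switched on by B-Myb with the MuvB core and by Foxm1. Both DREAM and B-Myb-MuvB act through a short promoter element, the cell cycle genes homology region (CHR), which often lies close to the start of transcription and downstream of boxes for the trimeric factor NF-Y. After activation through the T cell receptor, naive CD8+ T cells divide rapidly and IL-2 keeps them dividing, so that these transcripts are abundant in such cultures.

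The promoters were read to see what the genes share in sequence. RefSeq windows of 300 bases (250 before and 50 after the start, build GRCm38.p6) were held for 29 of the 33 genes, with 30 windows in all, since Prc1 had 2 that overlap. Ccna2, Tpx2, Kif20a and Aurkb had none in the table used. The windows of 4 genes with a match to the CHR letters are shown, in the order of the genes' mean level, 5′ to 3′ on the strand of the gene, with matches to TTTGAA (CHR) or CCAAT (the NF-Y box), on either strand, in capitals. The windows are chr11:99024140-99024439, minus strand, for Top2a, chr9:70421505-70421804, minus strand, for Ccnb2, chr7:135716330-135716629, minus strand, for Mki67 and chr9:61946750-61947049, minus strand, for Kif23.
Top2a: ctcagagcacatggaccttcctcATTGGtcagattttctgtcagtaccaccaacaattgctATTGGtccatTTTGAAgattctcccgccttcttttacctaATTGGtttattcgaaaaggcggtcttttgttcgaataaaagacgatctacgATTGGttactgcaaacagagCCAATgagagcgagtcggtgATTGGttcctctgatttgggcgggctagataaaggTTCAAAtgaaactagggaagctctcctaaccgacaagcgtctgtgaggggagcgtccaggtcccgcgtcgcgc
Ccnb2: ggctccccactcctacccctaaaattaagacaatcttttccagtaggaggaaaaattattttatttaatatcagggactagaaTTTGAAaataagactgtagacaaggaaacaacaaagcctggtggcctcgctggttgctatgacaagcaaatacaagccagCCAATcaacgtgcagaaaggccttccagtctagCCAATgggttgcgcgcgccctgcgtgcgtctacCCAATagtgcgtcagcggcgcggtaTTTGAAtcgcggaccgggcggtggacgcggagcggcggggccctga
Mki67: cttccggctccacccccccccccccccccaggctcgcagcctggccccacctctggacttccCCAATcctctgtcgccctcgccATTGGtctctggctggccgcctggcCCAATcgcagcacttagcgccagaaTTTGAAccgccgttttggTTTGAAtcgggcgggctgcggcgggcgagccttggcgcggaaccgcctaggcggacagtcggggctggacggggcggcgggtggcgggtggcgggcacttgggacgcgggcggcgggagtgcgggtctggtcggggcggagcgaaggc
Kif23: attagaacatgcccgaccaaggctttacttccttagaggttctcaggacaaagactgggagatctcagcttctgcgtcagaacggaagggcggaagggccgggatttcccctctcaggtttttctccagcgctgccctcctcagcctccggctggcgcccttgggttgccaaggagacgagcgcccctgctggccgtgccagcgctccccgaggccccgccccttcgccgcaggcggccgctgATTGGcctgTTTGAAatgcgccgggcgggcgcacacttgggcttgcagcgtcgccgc
Top2a held 6 NF-Y boxes and 2 CHR matches in this window, and Mki67 held 3 boxes upstream of 2 CHR matches. Kif23 held a single box closely followed by a CHR match at the start site.

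TTTGAA on either strand was found in 23 of the 30 windows (76.7%), against 17.9% of all 32851 RefSeq windows of the same length. Within 50 bases of the start on either side, it was found in 22 windows (73.3%), against 4.9% of all windows. The variant TTTAAA, which reads the same on both strands and shares no match with TTTGAA, was found in 8 windows (26.7%, against 13.2% of all), and either form in 26 (86.7%, against 27.6%). CCAAT on either strand was found in 25 windows (83.3%, against 37.4%), together with TTTGAA in 21 (70.0%, against 7.0%), and 17 genes had at least 2 boxes in a window. A RUNX motif, read on both strands as TGTGGT, as TGCGGT, as TGTGGC or as TGCGGC, was found in 15 of 30 windows, against 45.2% of all windows. These are matches of letters in a short window and were not tested for binding.

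**Figure D1:**
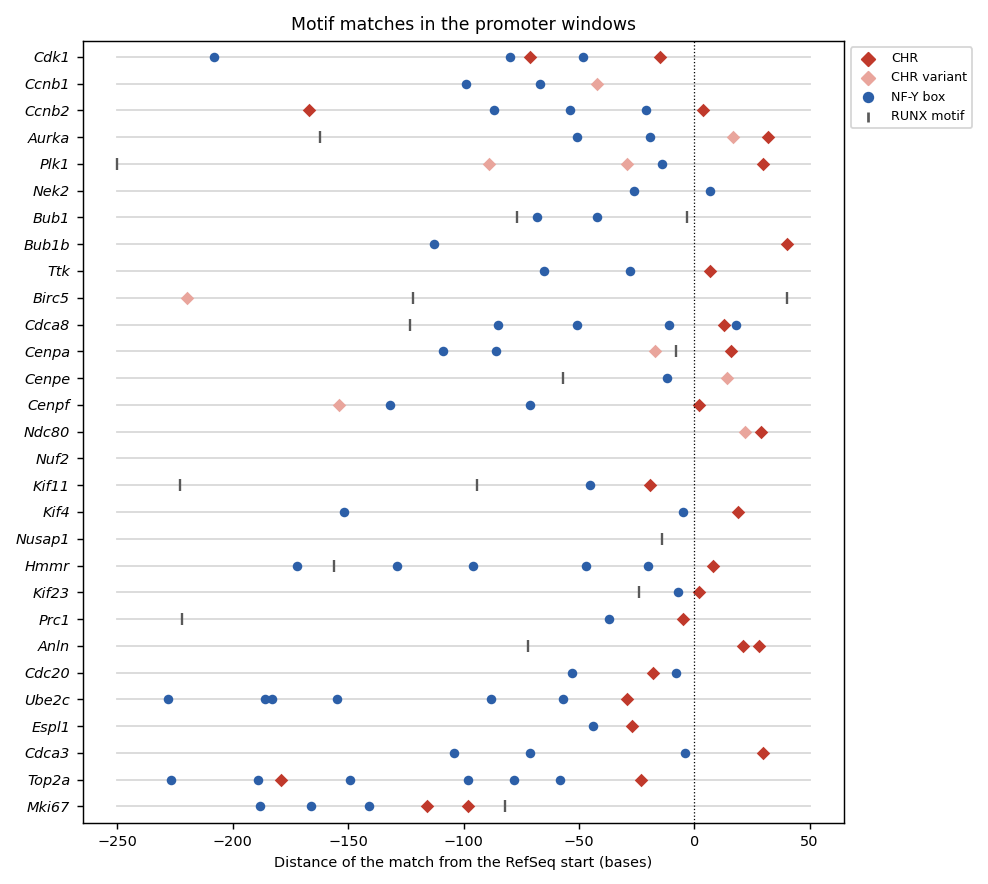
Matches in the promoter window of each gene with a RefSeq window, by distance of the match from the start in bases (x axis, 250 before to 50 after; 1 window is drawn for Prc1). Red diamonds are CHR matches, pale diamonds the variant, blue circles NF-Y boxes and grey bars RUNX matches; 22 of the 27 CHR matches drawn begin from 50 before to 50 after the start, and the boxes mostly lie upstream of them.

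The question put to the arrays was whether IL-2-activated CD8+ T cells of Runx3-/- mice differ from WT cells in the genes of division. With all 6 arrays, 0 of the 32 genes passed an adjusted p of 0.05 in limma, against 0.629% of all tested genes (63 genes). An unadjusted p under 0.05 was reached by 0 of 32, against 14.1% of all tested genes (1413 genes). At the threshold used by the study, a 1.5-fold change with an unadjusted p of 0.05, 0 of 32 passed, against 8.3% of all tested genes (832 genes). The median difference of the 32 genes, KO-labelled minus WT, was -0.05 on the log2 scale, against -0.01 over all tested genes, and 11 genes were above 0. The values ran from -0.40 for Cdk1 (SE 0.62, 95% interval -1.87 to 1.07) to 0.39 for Cenpf (SE 0.51, 95% interval -0.81 to 1.58), with adjusted p-values of 0.744 to 0.995. The intervals leave room for differences of more than 2-fold either way in 24 of 32 genes, so the arrays do not show that the genotypes are alike.

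Behind the group means, the KO-labelled arrays split in the same way in nearly every gene. KO1 and KO3 stood above all 3 WT arrays in 30 of 32 genes, against 20.2% of all tested genes, and the exceptions were Cdk1 and Ube2c, in which WT2 was the highest array. KO2 was the lowest of the 6 arrays in 32 of 32 genes, against 34.7% of all tested genes. Both at once, with KO1 and KO3 above and KO2 below all WT arrays, held for 30 of 32 genes, against 5.18% of all tested genes (519 genes, of which these 30 made up 5.8%). The same order of arrays, KO3, KO1, WT2, WT1, WT3 and KO2 from high to low, was found in 20 genes, and only 7 orders occurred. WT3 was the lowest WT array in 31 of 32 genes (96.9%), Cenpf being the exception, against 38.6% of all tested genes.

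**Figure D2:**
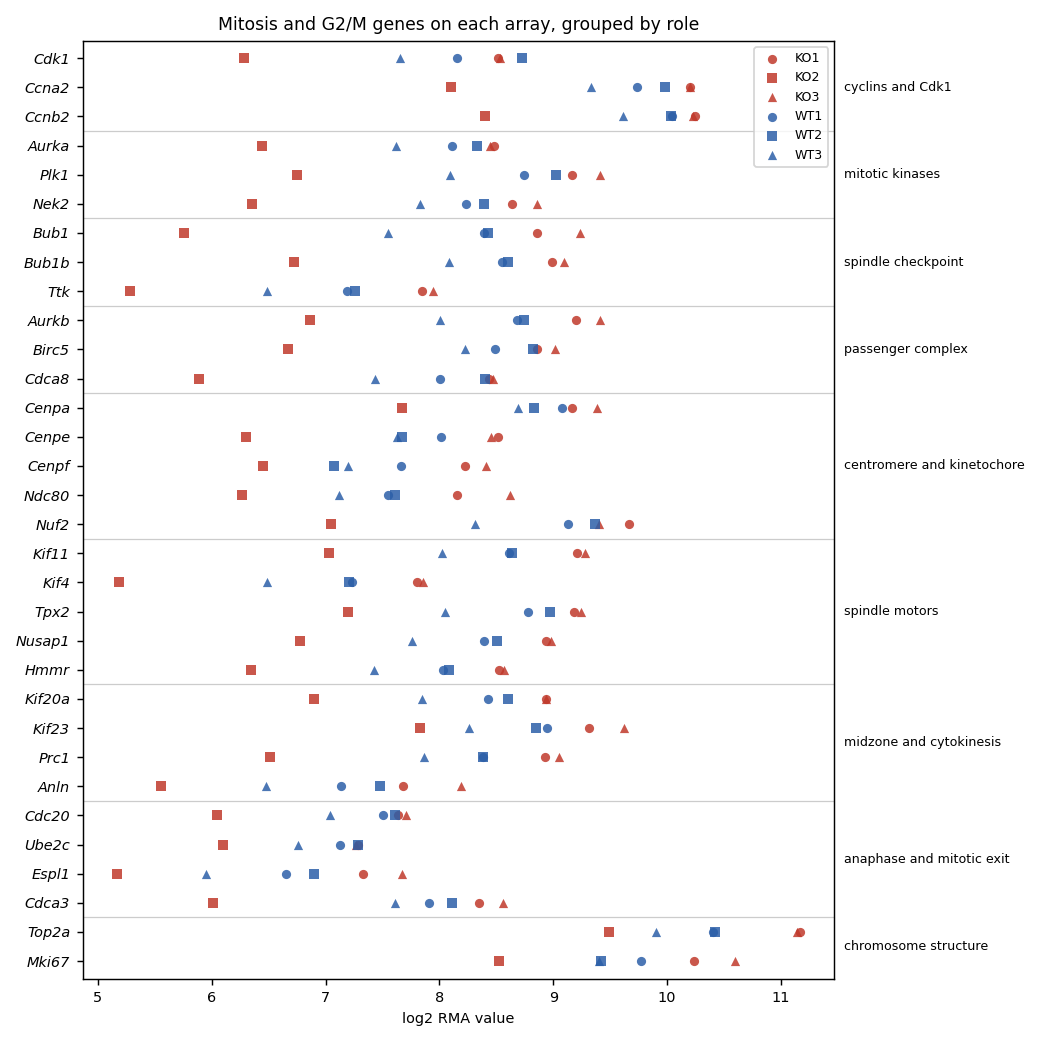
Log2 RMA value (x axis) of each of the 32 genes (rows, grouped by role) on each array, with KO-labelled arrays in red and WT arrays in blue and the replicate number given by the symbol. The red squares of KO2 are the lowest point of every row, and the red circles and triangles of KO1 and KO3 are above all blue points in 30 rows.

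Among the cyclins and their kinase, Ccnb2, a B type cyclin that activates Cdk1, had log2 values of 10.24, 8.40 and 10.23 in KO1, KO2 and KO3, against 10.04, 10.04 and 9.61 in WT1, WT2 and WT3. Ccna2, the A type cyclin of S and G2 phases, had 10.20, 8.10 and 10.20 on the KO-labelled arrays, against 9.74, 9.98 and 9.33 on the WT arrays. Cdk1 itself had 8.51, 6.28 and 8.53 on the KO-labelled arrays, against 8.15, 8.72 and 7.66 on the WT arrays. In all 3 genes KO1 and KO3 were nearly equal and KO2 lay below the WT arrays. KO1 and KO3 lay above them in Ccnb2 and Ccna2, and below WT2 in Cdk1. Their median difference was -0.27 with all arrays and 0.34 without KO2.

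Of the mitotic kinases, Plk1, the polo-like kinase that drives entry into and exit from mitosis, had 9.17, 6.75 and 9.41 on the KO-labelled arrays, against 8.74, 9.02 and 8.10 on the WT arrays. KO2 was 5.82-fold below the mean of KO1 and KO3. Aurka, the Aurora kinase of the centrosome, and Nek2, which splits the centrosomes, showed the same split, with KO2 4.07-fold and 5.27-fold below the other KO-labelled arrays. None of the 3 kinases passed the test (adjusted p of 0.876 to 0.928).

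The spindle checkpoint, which holds back anaphase until all chromosomes are attached, showed the widest split. Bub1, the kinase that builds the checkpoint at the kinetochore, had 8.86, 5.75 and 9.23 on the KO-labelled arrays, against 8.39, 8.43 and 7.55 on the WT arrays. KO2 lay 9.79-fold below the mean of KO1 and KO3, a log2 gap of -3.29, which was the lowest such gap of all 10021 tested genes. Bub1b, the BubR1 protein that inhibits the anaphase-promoting complex, had 8.99, 6.72 and 9.09 on the KO-labelled arrays, against 8.55, 8.60 and 8.08 on the WT arrays. Ttk, the Mps1 kinase that starts the signal, had 7.85, 5.28 and 7.94 on the KO-labelled arrays, against 7.19, 7.26 and 6.49 on the WT arrays. In all 3 the WT arrays lay between KO2 and the other KO-labelled arrays, with no overlap once KO2 was set aside. The difference in Bub1 was -0.17 with all arrays (SE 0.87) and 0.92 without KO2 (SE 0.31, adjusted p = 0.33).

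The chromosomal passenger complex corrects faulty attachments and later marks the midzone. Its kinase, Aurkb, had 9.20, 6.86 and 9.41 on the KO-labelled arrays, against 8.68, 8.75 and 8.004 on the WT arrays. Its localizing subunits Birc5 (survivin) and Cdca8 (borealin) had gaps of KO2 to the mean of KO1 and KO3 of -2.27 and -2.56. In these subunits KO1 was close to WT2, at 8.86 in KO1 against 8.83 in WT2 for Birc5 and at 8.44 in KO1 against 8.40 in WT2 for Cdca8, whereas in Aurkb KO1 was 9.20 against 8.75 in WT2.

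Of the centromere and kinetochore genes, Nuf2, a subunit of the Ndc80 complex that grips microtubules, had 9.66, 7.04 and 9.40 on the KO-labelled arrays, against 9.13, 9.36 and 8.32 on the WT arrays. Ndc80, its partner, had 8.15, 6.27 and 8.62 on the KO-labelled arrays, against 7.55, 7.61 and 7.11 on the WT arrays. The 2 partners differed mainly in KO3, which lay narrowly above WT2 in Nuf2 and far above it in Ndc80. KO1 lay clearly above WT2 in both. Cenpf, a large protein of the outer kinetochore, had 8.23, 6.45 and 8.41 on the KO-labelled arrays, against 7.66, 7.08 and 7.19 on the WT arrays. It was the only one of the 32 genes in which WT2 was the lowest WT array, and it had the largest difference both with all arrays and without KO2 (1.01, SE 0.21, adjusted p = 0.174). Cenpe, a kinetochore motor, and Cenpa, the histone H3 variant that marks centromeres, had gaps of -2.18 and -1.60.

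The spindle genes had closely similar profiles. Tpx2, which activates Aurora A on the spindle, had 9.18, 7.20 and 9.24 on the KO-labelled arrays, against 8.78, 8.97 and 8.05 on the WT arrays. Kif11, the motor that pushes the spindle poles apart, had 9.21, 7.03 and 9.28 on the KO-labelled arrays, against 8.61, 8.64 and 8.02 on the WT arrays. Kif4, a chromosome-bound motor, had 7.80, 5.18 and 7.86 on the KO-labelled arrays, against 7.23, 7.21 and 6.48 on the WT arrays. KO1 and KO3 differed little in these genes, and KO2 was at least 4.05-fold below them in each of the 5 spindle genes, Nusap1 and Hmmr, which bind spindle microtubules, included.

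In the midzone and cytokinesis group, Kif23, the motor of the centralspindlin complex, had 9.31, 7.83 and 9.62 on the KO-labelled arrays, against 8.94, 8.85 and 8.26 on the WT arrays. Its KO2 value was only 1.35-fold below the lowest other array, WT3, against 3.47-fold for Bub1. Anln (anillin), the scaffold of the contractile ring, had 7.68, 5.55 and 8.19 on the KO-labelled arrays, against 7.14, 7.47 and 6.48 on the WT arrays. Prc1, which bundles midzone microtubules, and Kif20a, a motor of the midzone, had gaps of -2.48 and -2.04. KO1 and KO3 were the highest arrays and KO2 the lowest in all 4 genes, with KO2 nearest to WT3 in Kif23.

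The genes of anaphase and mitotic exit held both narrow and wide splits. Cdca3 was listed in this group, although it helps remove the Wee1 kinase at mitotic entry. It had 8.34, 6.01 and 8.56 on the KO-labelled arrays, against 7.91, 8.11 and 7.61 on the WT arrays. Ube2c, the ubiquitin-conjugating enzyme of the anaphase-promoting complex, had 7.28, 6.10 and 7.26 on the KO-labelled arrays, against 7.12, 7.29 and 6.76 on the WT arrays. Espl1 (separase), the protease that cuts cohesin, had 7.32, 5.17 and 7.67 on the KO-labelled arrays, against 6.65, 6.90 and 5.95 on the WT arrays. Ube2c had the smallest gap of KO2 of the 32 genes, 2.26-fold, and with Cdc20, an activator of the complex, the smallest differences without KO2 (0.22 and 0.28), while Espl1 was 0.996 higher without KO2 (SE 0.30, adjusted p = 0.29).

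Of the 2 genes of chromosome structure, Top2a, the topoisomerase that untangles sister chromatids, had 11.17, 9.49 and 11.14 on the KO-labelled arrays, against 10.40, 10.42 and 9.90 on the WT arrays. Mki67, the proliferation antigen Ki-67 that coats mitotic chromosomes, had 10.24, 8.52 and 10.60 on the KO-labelled arrays, against 9.77, 9.42 and 9.40 on the WT arrays. KO2 was 0.75 below the WT mean for Top2a, the least of the 32 genes, and KO1 and KO3 were well clear of the WT arrays in both. Top2a averaged 10.60 ± 0.96 on the KO-labelled arrays and 10.24 ± 0.30 on the WT arrays (SD, n = 3 each), a difference of 0.36 (SE 0.46, adjusted p = 0.744). A second, much dimmer row of Top2a gave 5.94, 5.07 and 6.30 on the KO-labelled arrays, against 5.66, 5.05 and 5.42 on the WT arrays. There the lowest array was WT2, by 0.02, and not KO2.

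Over all 32 genes, KO2 lay a median of 4.63-fold below the mean of KO1 and KO3, a log2 gap of -2.21 against -0.10 over all tested genes, and only 87 tested genes (0.868%) had a gap at or below that median. KO2 was at least 2-fold below the lowest other array in 19 of 32 genes, against 1.7% of all tested genes (170 genes), and 19 of the 32 were among the 100 tested genes with the lowest gaps. The gap ran from -3.29 for Bub1 to -1.18 for Ube2c. It had a median of -2.21 in the 22 genes with a CHR match in their window and -2.33 in the 6 tested genes with a window but no such match. KO2 held 62.6% of the squared deviations of these genes from their own means, against 29.4% over all tested genes. The median SD was 1.28 among the KO-labelled arrays, 0.07 over KO1 and KO3 alone, and 0.35 among the WT arrays, against 0.22, 0.14 and 0.20 over all tested genes.

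**Figure D3:**
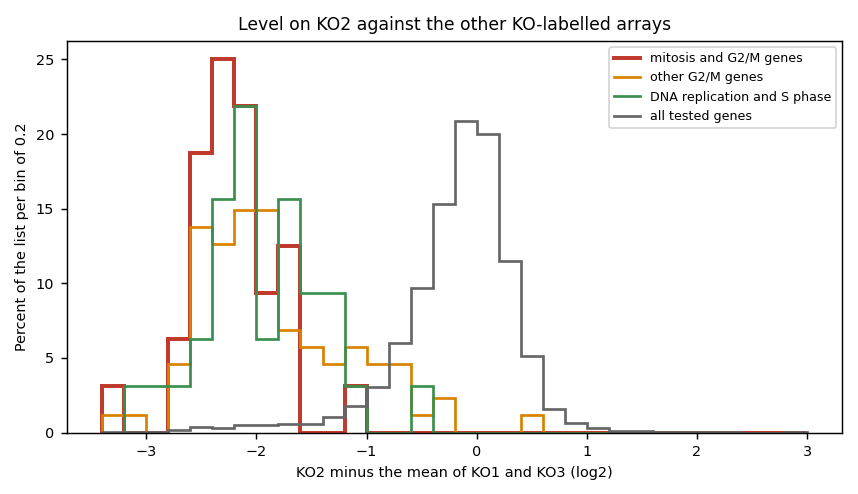
Percent of each list (y axis) by KO2 minus the mean of KO1 and KO3 on the log2 scale (x axis, bins of 0.2) for the 32 mitosis and G2/M genes (red), 87 other G2/M genes (orange), 32 genes of DNA replication and S phase (green) and all 10021 tested genes (grey). The red list runs from -3.29 to -1.18 with a median of -2.21, while all tested genes centre near -0.10.

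Without KO2 the sign of the comparison changed for most genes. All 32 genes were then above 0, with a median of 0.68 against 0.02 over all tested genes, from 0.22 for Ube2c to 1.01 for Cenpf. At the study's threshold, 19 of 32 were higher in KO-labelled cells, against 4.62% of all tested genes (463 genes). By role these were 3 of 3 checkpoint genes, 4 of 4 midzone and cytokinesis genes, 4 of 5 spindle genes, 3 of 5 centromere and kinetochore genes, both genes of chromosome structure, and Nek2, Aurkb and Espl1, but none of the cyclins and Cdk1. After adjustment over all genes, 0 of 32 passed in limma, against 0.269% of all tested genes (27 genes), with adjusted p-values of 0.174 to 0.675. An unadjusted p under 0.05 in limma was reached by 20 of 32, against 12.5% of all tested genes (1256 genes). Mki67 was 0.89 higher (SE 0.19, adjusted p = 0.179) and Top2a 0.92 higher (SE 0.20, adjusted p = 0.182) in limma. KO2 was the lowest array in all 32 genes, so leaving it out had to raise every difference. KO2 was picked out by its values in these genes, which moved together across KO1 and KO3. The counts without KO2, here and in the lists that follow, are therefore a description and no test of the genotype. Leaving out WT1 instead gave a median of 0.03, with 17 genes above 0 and 0 past either threshold. Of all 10021 tested genes, 17 then passed the adjusted threshold and 878 the study's.

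**Figure D4:**
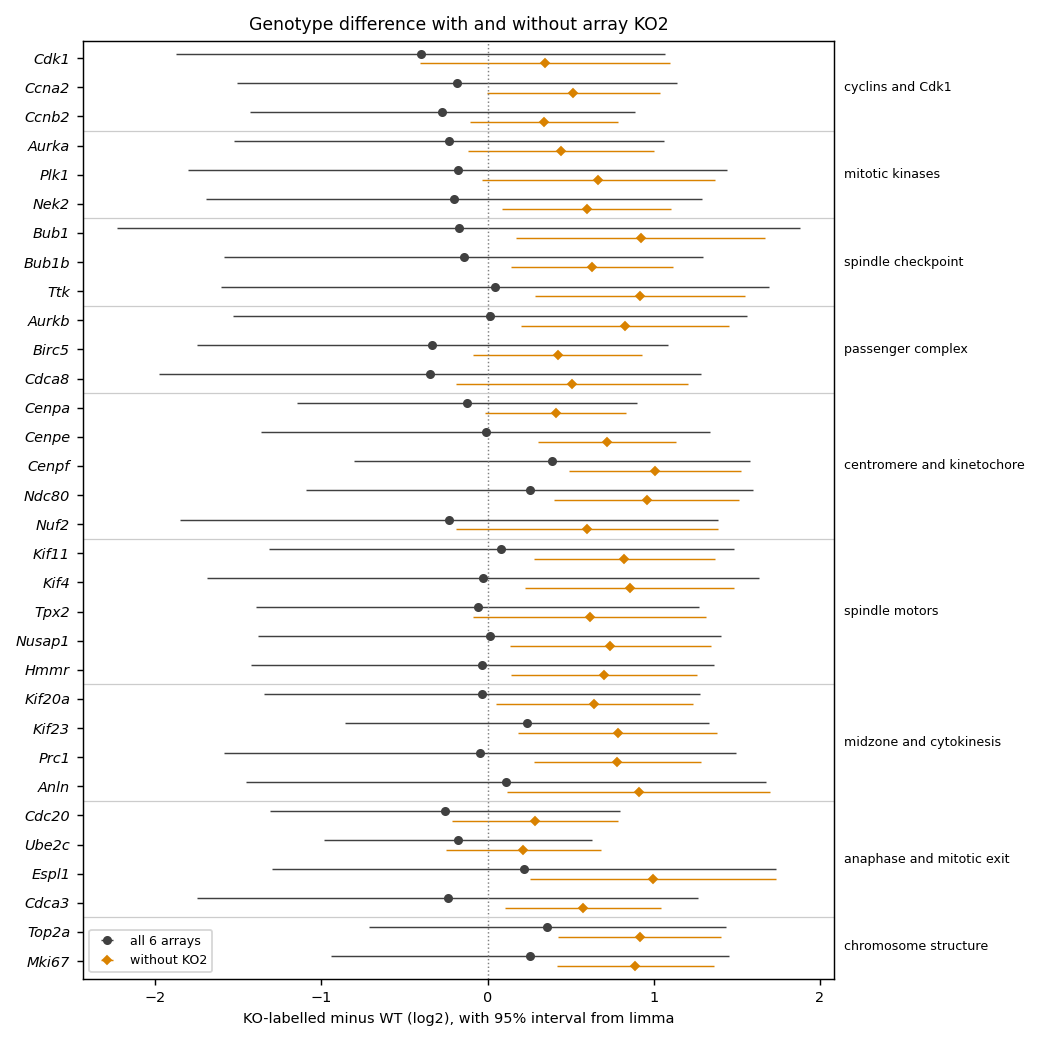
KO-labelled minus WT on the log2 scale (x axis) for each of the 32 genes (rows, grouped by role), with all 6 arrays (black circles) and without KO2 (orange diamonds). Bars are 95% intervals from limma; with all arrays every bar crosses 0, and without KO2 all 32 points lie above 0.

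A further list of 89 G2/M genes, 87 of them tested, was read the same way. It holds condensins, kinesins, centromere proteins and other genes of the same wave. Of these, 0 passed the adjusted threshold in limma, against 0.629% of all tested genes. Only 1 had an unadjusted p under 0.05 in limma, against 14.1% of all tested genes. It also passed the threshold of the study, against 8.3%. The median difference of the list was -0.02, and KO2 was the lowest array in 83, against 34.7% of all tested genes. The gap of KO2 had a median of -1.98. The split between KO1 and KO3, the WT arrays and KO2 was shown by 69 of 87 (79.3%), against 5.18% of all tested genes. Cdca5 (sororin), which protects cohesion of sister chromatids, had 8.25, 5.13 and 8.54 on the KO-labelled arrays, against 7.82, 7.90 and 7.27 on the WT arrays. Its gap of -3.26 was the lowest of this list, close to that of Bub1, and it was picked for that value. Without KO2, 84 of 87 were above 0, against 5361 of all 10021 tested genes. At the study's threshold 44 then passed, all higher, against 4.62% of all tested genes.

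Smc4, a core subunit of the condensin complexes, was the gene past the study's threshold and did not follow the rest. It had 10.96, 11.55 and 11.25 on the KO-labelled arrays, against 10.41, 10.17 and 10.18 on the WT arrays, a difference of 1.004 (SE 0.18, adjusted p = 0.0765). KO2 was here the highest array and all KO-labelled arrays lay above all WT arrays, whereas the gap of KO2 in the other 7 condensin subunits of the list ran from -3.17 in Ncapg2 to -0.99 in Ncapd3, with a median of -2.15. Psrc1, a spindle protein, was the gene of this list with the lowest difference (-1.22, SE 0.53, adjusted p = 0.361), with 7.68, 5.82 and 7.50 on the KO-labelled arrays, against 8.86, 7.81 and 7.98 on the WT arrays. All 3 KO-labelled arrays were below all WT arrays in Psrc1, KO1 only narrowly below WT2. Without KO2 its difference was -0.625 (SE 0.325, adjusted p = 0.477 in limma). WT1 was its highest array, and its difference without WT1 is not given here.

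The regulators of the wave differed among themselves. Foxm1, the forkhead factor that activates G2/M genes, had 7.41, 5.47 and 7.66 on the KO-labelled arrays, against 6.72, 6.85 and 6.41 on the WT arrays. Mybl2 (B-Myb) had 7.08, 5.06 and 7.21 on the KO-labelled arrays, against 6.52, 7.09 and 5.73 on the WT arrays. Both showed KO2 as the lowest array with gaps near those of the G2/M genes (-2.07 and -2.09). With all arrays neither differed between the genotypes beyond the spread (adjusted p of 0.904 for Foxm1, with a difference of 0.19). Without KO2, Foxm1 was 0.88 higher (SE 0.19, adjusted p = 0.174) and Mybl2 0.70 higher (SE 0.38, adjusted p = 0.494) in limma. Lin54, the MuvB subunit that binds the CHR, had a gap of -1.45, Rbl1 (p107) one of -1.13 and the DREAM subunit Lin37 one of -0.01. Over the 15 tested regulators the median gap was -0.60, and KO2 was lowest in 11, against 34.7% of all tested genes. With all arrays 0 passed either threshold, against 0.629% and 8.3% of all tested genes. An unadjusted p under 0.05 in limma was reached by 0, against 14.1%. Without KO2, 2 passed the study's threshold, Foxm1 and Rbl1 (0.74, SE 0.16, adjusted p = 0.174), both higher, against 4.62% of all tested genes. In 14 subunits of the anaphase-promoting complex, which are made throughout the cycle, the median gap was -0.44, against -0.10 over all tested genes. KO2 was lowest in 10 of the 14 (71.4%), against 34.7% of all tested genes. The full split was shown by 4 of them (28.6%), against 5.18%. Anapc15 had their lowest gap, -1.535.

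The genes of DNA replication and S phase, which are made in an earlier wave under E2F control, were also lowest on KO2. This held for 32 of 32 of them, against 34.7% of all tested genes, with a median gap of -2.04. KO1 and KO3 stood above all WT arrays in 15 of 32, against 20.2% of all tested genes. The full split was shown by 46.9%, against 93.8% of the mitosis and G2/M genes and 5.18% of all tested genes. Without KO2, 31 of the 32 S phase genes were above 0, against 5361 of all 10021 tested genes. Their median was 0.53, against 0.68 in the mitosis and G2/M genes. At the study's threshold 5 then passed, all higher, against 4.62% of all tested genes. With each gene centred on its mean over the 6 arrays and the genes then averaged, the mitosis and G2/M genes stood at 0.64, -1.48 and 0.77 on KO1, KO2 and KO3, against 0.18, 0.26 and -0.36 on WT1, WT2 and WT3. The S phase genes stood at 0.67, -1.37 and 0.48 on the KO-labelled arrays, against 0.12, 0.48 and -0.39 on the WT arrays. WT2 was thus level with KO3 in S phase genes and lay below it in mitosis and G2/M genes. This difference between the lists was not tested.

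**Figure D5:**
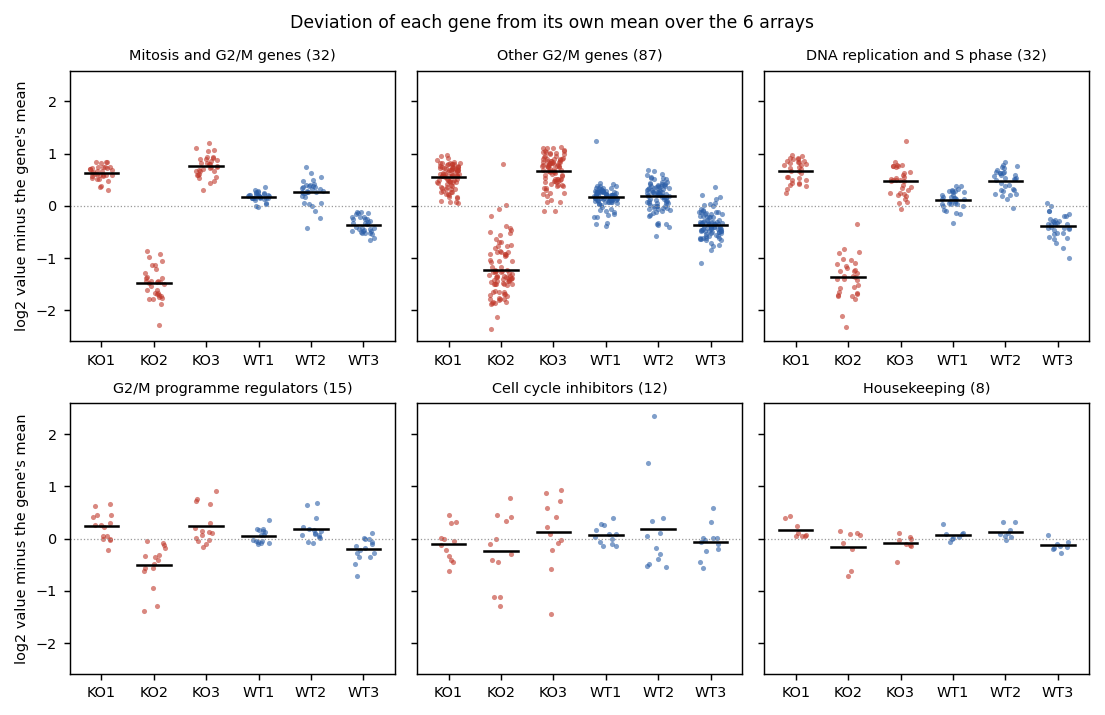
Log2 value of each gene minus its own mean over the 6 arrays (y axis) on each array (x axis; KO-labelled red, WT blue) for 6 lists, with the number of tested genes in brackets and the mean of the list as a black bar. The mitosis and G2/M genes average -1.48 on KO2, and the housekeeping genes -0.15.

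Among genes that act earlier in the cycle or restrain it, the full split was found in 0 of 7 tested drivers and 1 of 12 tested inhibitors. Over all tested genes its share was 5.18%, so these counts are near that share. Of the 7 G1 cyclins and drivers, Myc, which drives growth and entry into the cycle, had 9.61, 8.90 and 9.17 on the KO-labelled arrays, against 10.15, 10.11 and 10.22 on the WT arrays. Ccnd2, the D type cyclin prominent in T cells, had 10.08, 9.87 and 9.32 on the KO-labelled arrays, against 10.42, 10.47 and 10.38 on the WT arrays. Both were lower in all 3 KO-labelled arrays and passed the study's threshold (Myc -0.94, SE 0.20, adjusted p = 0.117; Ccnd2 -0.67, SE 0.21, adjusted p = 0.252). They stayed lower without KO2, at -0.77 and -0.72. Of 12 tested inhibitors, Cdkn2b, the INK4 inhibitor p15, was lower at the study's threshold, with 5.55, 5.05 and 4.73 on the KO-labelled arrays, against 6.44, 8.53 and 6.76 on the WT arrays (-2.13, SE 0.54, adjusted p = 0.169). Cdkn1b (p27), which restrains Cdk2, had 9.34, 9.88 and 9.88 on the KO-labelled arrays, against 9.40, 8.94 and 9.35 on the WT arrays, and the groups overlapped. KO2 was the lowest array in 2 of the 7 drivers (28.6%) and 4 of the 12 inhibitors (33.3%), near the 34.7% of all tested genes.

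Measures of the arrays and of other cells stood beside the low KO2 as follows. The median over all rows was 4.35 on KO2 and 4.15 to 4.30 on the other arrays, and 9375 tested genes reached the table median on KO2, the most of the 6 arrays. Over 8 housekeeping genes the median gap of KO2 was -0.05, with Hprt at -0.94 and Gusb at -0.60. The mean level of the CD8 T cell markers was highest on KO2, at 10.74. Among CD4 T cell genes, Cd4 had 6.95, 6.70 and 6.77 on the KO-labelled arrays, against 5.29, 5.80 and 6.50 on the WT arrays. Cd4 (0.945, SE 0.295, adjusted p = 0.25) and Zbtb7b (0.64, SE 0.26, adjusted p = 0.342) were higher at the study's threshold in limma. Foxp3 went the other way (-0.32, SE 0.43, adjusted p = 0.764), and Cd40lg lay below the table median on all arrays. The mean of the 4 listed genes was 5.35 to 5.89 on the KO-labelled arrays, against 5.14 to 5.43 on the WT arrays. The 5 NK cell genes with a row had means of 3.85 to 4.00 on the KO-labelled arrays, against 4.15 to 4.48 on the WT arrays, and 2 of them lay below the table median on all arrays. Klrb1c was lower at the study's threshold (-1.56, SE 0.39, adjusted p = 0.169 in limma). It had 3.74, 3.76 and 3.77 on the KO-labelled arrays, against 4.34, 5.665 and 5.94 on the WT arrays. Klre1 (-0.23) and Itga2 (0.11) differed less. The B cell gene Cd79b was also lower at the study's threshold (-0.93, SE 0.22, adjusted p = 0.148 in limma). The part of these values in the split was not tested.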

How the data were processed

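Total RNA of cultured splenic CD8+ T cells was measured on 6 arrays, 3 KO-labelled and 3 WT, each a biological repeat. The authors imported the scans into Partek (version not given in the sources used here) and made log2 values by RMA (background subtraction, quantile normalization and summary per transcript) with correction for GC content. This summary compresses low values, so that differences of dim genes are understated. Precision is limited by how many arrays there were. The deposited log2 table had 35399 rows, of which 21789 were paired with 1 gene symbol, 1621 with several and 11989 were not named here. Each of the 19938 genes was read from its brightest row, and entered the test where the largest of the 6 values reached the table median of 4.26, used in place of the background level, which is not given.

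Groups came from the sample titles, and 0 columns stayed without a sample. KO-labelled and WT arrays were compared with limma 3.58.1 in R 4.3.3 (lmFit and eBayes, two-sided, no covariate), with Benjamini-Hochberg adjustment over all 10021 tested genes. Adjusted p-values, standard errors (SE) and 95% intervals are from this fit, which was also checked on simulated data. The spread behind these p-values is that of mice and of cultures at once. Promoter windows are from RefSeq. Figures were drawn with matplotlib 3.10.9.

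The members and the other lists were chosen with earlier results of these data known. Values on each array are given for at least the gene with the highest mean of each role. Genes of other lists are named where they passed a threshold with all arrays, or were among up to 4 with the smallest p. The other genes named beside them were chosen after their values were seen. The alternatives were no filter, other scaling, the mean of a gene's rows, a replicate block, other priors, array weights, an unmoderated model and each array left out.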

Additional observations from a re-analysis of the deposited data

How the results depend on the processing

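Across 14 alternatives, 0 of the 32 mitosis and G2/M genes passed an adjusted p of 0.05 in any of them. At the study's threshold the count was 0 except with array weights (2 genes) and without KO2 (19 genes), so that leaving out 1 array in turn gave 0 to 19. The number of genes above 0, 11 with all arrays, was 32 with array weights. The highest weights were those of WT1 (3.099) and KO3 (2.737), and the lowest those of KO2 (0.344) and WT2 (0.381). With 1 array left out, the number above 0 ran from 2 to 32. It was 5 without KO1, 32 without KO2 and 2 without KO3. Without WT1 it was 17, without WT2 also 17 and without WT3 it was 5. The median difference of the 32 genes ran from -0.45 without KO3 to 0.68 without KO2. It was 0.47 with array weights, -0.06 after quantile normalization and -0.12 after median centring, which moved the median of all genes to -0.06 and -0.09. Under these 2 scalings the median gap of KO2 was -2.10 and -2.29.

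Over all tested genes, the count past the adjusted p, 63, was 36 with no filter (19938 genes tested), 547 with array weights, 0 in the unmoderated model and 9 to 67 with 1 array left out (27 without KO2, 9 without KO3, 17 without WT1, 26 without WT2 and 11 without WT3). The count at the study's threshold, 832, was 508 in the unmoderated model and 651 to 1258 with 1 array left out, the highest without KO1. With the replicate number as a block, 1 gene passed the adjusted p. Same-numbered arrays did not deviate together (correlations of -0.13, -0.37 and -0.13). These correlations rest on few arrays per genotype, so they cannot show whether same-numbered arrays shared a day or a batch. The causes of these changes were not tested.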
